A study of Mus musculus with 8 samples.

Results

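The brush border peptidases are 8 genes, Anpep, Dpp4, Enpep, Mep1a, Mep1b, Ace, Xpnpep2 and Mme, taken by name from a fixed list and read by their Ensembl identifiers, out of 13081 genes with a value in the series. The series measured RNA by sequencing in mouse small intestinal organoids, with 4 samples from wild-type littermates (WT) and 4 from MG53-TG mice, which overexpress MG53, a TRIM family protein encoded by Trim72. Crypts were freed with EDTA, embedded in Matrigel and grown in IntestiCult medium, a culture that keeps stem cells and their descendants together. The study's text describes its crypt organoid transcriptome in part as that of MG53;Lgr5 mice against Lgr5 controls and elsewhere as that of MG53-TG and WT mice, and the genotypes used here are those of the labels. The comparison asks how MG53 overexpression altered the transcripts of the enzymes that finish protein digestion at the gut surface. The labels give neither the promoter of the transgene nor the age of the mice, and they do not say whether the 4 samples of a group came from separate animals, so p-values measure the spread between these samples, which may be technical.

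Dietary protein is cut to short peptides by pancreatic enzymes in the gut lumen, and peptidases anchored in the microvillus membrane of enterocytes cut those peptides further, to amino acids, dipeptides and tripeptides that carriers then take up. Aminopeptidases trim residues from the amino end, dipeptidyl peptidases and dipeptidyl carboxypeptidases release pairs of residues, and endopeptidases such as the meprins and neprilysin cut inside the chain. Several of these enzymes also inactivate or convert peptide hormones, among them angiotensins and incretins.

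All 8 genes had a value, in FPKM (fragments scaled to the length of the transcript and to the mapped total), and all passed the filter on low values, a mean of 0.5 FPKM. In MG53-TG organoids 7 of the 8 rose, by 2.70-fold for Xpnpep2 up to 29.3-fold for Enpep in mean FPKM, and none fell. Mme, at 27.4-fold over the WT samples that list it, was at 36.5-fold with the WT sample that does not list it set to 0. Genes were called at a Benjamini-Hochberg threshold of 0.05 in limma, adjusted across the 10271 genes tested, and by this rule 15.5% of all genes were called higher. In the same 7 genes every MG53-TG sample lay above every WT sample, as in 15.7% of all genes tested. Dpp4 was the member that did not pass. The median log2 fold change of the 8 was 2.08, with a range from 0.59 to 4.32, against -0.17 over all genes tested.

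**Figure D1:**
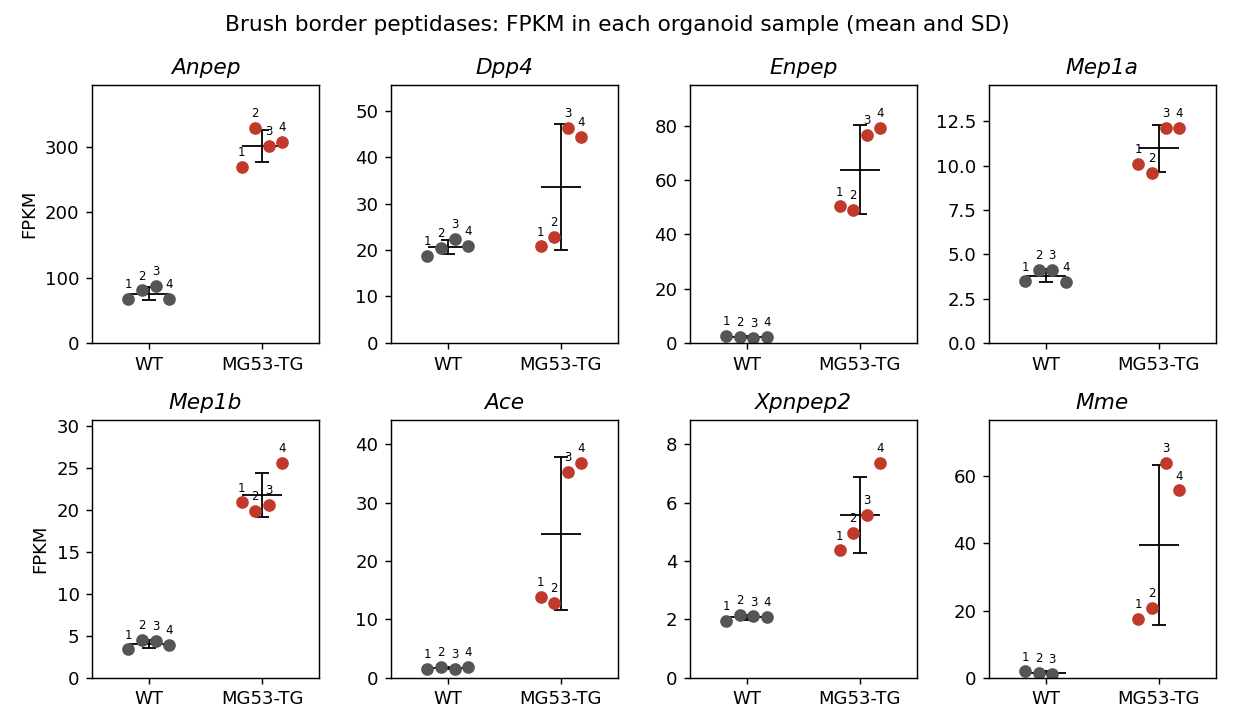
FPKM (vertical axis, linear from 0) of each brush border peptidase in WT (grey) and MG53-TG (red) organoid samples. Each point is 1 sample with its number, the horizontal line is the mean and the bars are the SD. The groups are apart in every panel except Dpp4, and WT sample 4 has no point for Mme.

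Some facts of the whole series touch these values. As a check of the labels, Trim72 was not listed in WT and stood at 16.4, 27.4, 31.9 and 36.5 FPKM in the MG53-TG samples. Over all genes, 1592 were called higher and 3004 (29.2%) lower, so 34.6% of the calls were higher, and the median log2 fold change was below 0, as given above. That share was 50.1% after median-of-ratios scaling and 44.8% after quantile normalization, which shifted that median up by 0.16 and 0.12. The same 7 peptidases passed under both. Enterocyte markers were present in all samples: all 10 listed were higher in MG53-TG, with a median log2 fold change of 3.29, above that of the peptidases, and their summed level went from 426 to 450 FPKM in WT to between 3026 and 5249 FPKM in MG53-TG. For its MG53;Lgr5 crypt organoids, the study's text describes lower stemness and absorptive markers and higher secretory markers. Here the enterocyte markers went the other way, as did the goblet and Paneth cell markers that were called. Of the goblet cell markers not called, Zg16 had a log2 fold change of 1.33 and Clca1 of -0.44. The stem cell markers that were called fell, and 2 enteroendocrine markers rose. In bulk RNA, fewer cells of a type and less RNA per cell cannot be told apart, and the same holds for more cells and more RNA.

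Promoter sequences are printed for members that rose, because the data bear on where their transcripts start. They come from RefSeq on GRCm38.p6, as 250 bases before to 50 bases after a start. Promoters were read for 7 of the 8 genes. That of Mep1b is not reported here, although its start event was listed in all samples. Capitals mark exact matches, on either strand, to letters bound by transcription factors of the enterocyte. For HNF4 the letters were CAAAGTCCA, held by 0.475% of all 32851 promoters in the table. The CDX letters TTTATNG were in 10.9% of the promoters. Those of GATA factors, AGATAA, were in 11.2% of the promoters. No motif overlapped another in the promoters of these genes. Among the promoters printed, the Mep1a promoter held the sole match, to the CDX letters, from base 13 to base 19 counted from the start. A match is a description of the letters and not a binding site. Enpep is at chr3:129332700-129332999 on the minus strand, Mep1a at chr17:43502724-43503023 on the minus strand, Ace at chr11:105967698-105967997 on the plus strand, Xpnpep2 at chrX:48108475-48108774 on the plus strand and Mme at chr3:63294961-63295260 (upstream) and chr3:63295845-63296144 (downstream) on the plus strand. Another Mme entry, with its start at 63295872, is not printed. Like the upstream Mme entry and that of Enpep, it had no start event within 50 bases. The Anpep entry, not printed, covers only an upstream start that held less than 1% of its start FPKM.
Enpep: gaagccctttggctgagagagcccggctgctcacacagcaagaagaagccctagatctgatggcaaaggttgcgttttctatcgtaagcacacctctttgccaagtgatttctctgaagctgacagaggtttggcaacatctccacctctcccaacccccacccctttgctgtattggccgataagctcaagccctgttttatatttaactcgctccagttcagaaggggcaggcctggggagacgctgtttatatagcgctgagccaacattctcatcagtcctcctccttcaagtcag
Mep1a: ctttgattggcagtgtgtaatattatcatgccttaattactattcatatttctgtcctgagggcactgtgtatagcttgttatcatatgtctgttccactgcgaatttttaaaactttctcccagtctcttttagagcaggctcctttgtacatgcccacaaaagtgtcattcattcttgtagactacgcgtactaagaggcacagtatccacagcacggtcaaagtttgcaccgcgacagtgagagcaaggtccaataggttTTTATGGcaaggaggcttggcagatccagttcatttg
Ace: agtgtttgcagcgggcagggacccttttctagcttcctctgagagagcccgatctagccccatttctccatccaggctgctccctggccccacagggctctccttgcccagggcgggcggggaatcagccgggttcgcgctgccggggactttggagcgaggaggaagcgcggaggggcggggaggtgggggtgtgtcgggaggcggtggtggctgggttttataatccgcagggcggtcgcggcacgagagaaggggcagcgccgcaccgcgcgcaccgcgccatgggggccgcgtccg
Xpnpep2: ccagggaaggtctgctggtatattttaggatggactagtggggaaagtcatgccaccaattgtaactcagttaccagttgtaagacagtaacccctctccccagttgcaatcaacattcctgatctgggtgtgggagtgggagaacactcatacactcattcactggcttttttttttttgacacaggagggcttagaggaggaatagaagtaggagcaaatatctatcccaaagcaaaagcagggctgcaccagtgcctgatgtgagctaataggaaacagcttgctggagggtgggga
Mme upstream: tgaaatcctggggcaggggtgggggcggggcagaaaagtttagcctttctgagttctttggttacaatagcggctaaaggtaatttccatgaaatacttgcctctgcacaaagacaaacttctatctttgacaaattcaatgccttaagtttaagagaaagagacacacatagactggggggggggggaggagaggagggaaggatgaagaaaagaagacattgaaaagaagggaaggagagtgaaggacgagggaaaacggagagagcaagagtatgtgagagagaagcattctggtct
Mme downstream: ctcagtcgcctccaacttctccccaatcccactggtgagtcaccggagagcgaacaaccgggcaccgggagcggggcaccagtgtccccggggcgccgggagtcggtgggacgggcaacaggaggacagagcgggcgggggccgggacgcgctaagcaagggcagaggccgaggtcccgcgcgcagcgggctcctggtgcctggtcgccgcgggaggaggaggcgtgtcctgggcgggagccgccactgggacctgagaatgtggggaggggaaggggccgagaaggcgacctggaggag
The sequences differ in base composition, with a GC content of 72.3% for the downstream Mme start and 69.7% for Ace, against 51.3% for Enpep, 47.3% for Xpnpep2, 46.0% for the upstream Mme start and 42.3% for Mep1a. Start events of the organoids lay within 50 bases of the RefSeq start for Mep1a, Ace, Xpnpep2 and the downstream Mme start, and not for the upstream Mme start or for Enpep, whose annotated first exon was not listed as a start in any sample. The Dpp4 promoter, not printed because Dpp4 did not pass, held a CDX match from base -228 to base -222 and a GATA match from base -32 to base -27.

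The aminopeptidases included the most abundant of the 8 genes, Anpep, and the gene with the largest log2 fold change, Enpep. Anpep (ENSMUSG00000039062, chr7:79821803-79861059, minus strand on GRCm38) encodes aminopeptidase N, which removes mostly neutral residues and is a major protein of the microvillus membrane. WT samples 1 to 4 held 66.9, 80.3, 87.7 and 67.1 FPKM, and the corresponding MG53-TG values were 269, 329, 302 and 308 FPKM. The MG53-TG samples lay close together, the highest being 1.22 times the lowest, and far above WT. Mean Anpep rose 4.00-fold, from 75.5 ± 10.3 to 302 ± 24.7 FPKM (SD, n = 4), with a log2 fold change of 1.99 (SE 0.11, limma adjusted p = 5.29e-06).

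Enpep (ENSMUSG00000028024, chr3:129269175-129332720, minus strand) encodes aminopeptidase A, which removes acidic residues and turns angiotensin II into angiotensin III. Its level was 2.44, 2.21, 1.95 and 2.09 FPKM in WT and 50.3, 49.1, 76.6 and 79.2 FPKM in MG53-TG. Even the lowest MG53-TG sample was many times the highest WT sample. The mean went from 2.17 ± 0.209 to 63.8 ± 16.3 FPKM (SD, n = 4), with a log2 fold change of 4.32 (SE 0.18, limma adjusted p = 9.27e-07). It was read from end events, since only minor start events were listed for it.

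Xpnpep2 (ENSMUSG00000037005, chrX:48108725-48136981, plus strand) encodes membrane-bound aminopeptidase P, which removes a residue that stands before proline. Its values were 1.93, 2.15, 2.10 and 2.07 FPKM in WT and 4.36, 4.95, 5.57 and 7.36 FPKM in MG53-TG. It was the lowest member in MG53-TG, and its log2 fold change was 1.08 (SE 0.15, limma adjusted p = 0.000600). The deposited identifier of Xpnpep2 also stood on 5 events of the opposite strand, of which 4 matched Apln, which encodes the peptide apelin, at chrX:48025146-48034853. Those 5 events were left out. With them, the log2 fold change of Xpnpep2 was 0.50 (limma adjusted p = 0.0230).

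The peptidases that release pairs of residues differed from each other. Dpp4 (ENSMUSG00000035000, chr2:62330073-62412231, minus strand) encodes dipeptidyl peptidase 4, a serine peptidase that cuts after a penultimate proline or alanine and inactivates incretins. It was at 18.8, 20.5, 22.3 and 20.9 FPKM in WT and at 20.8, 22.8, 46.3 and 44.4 FPKM in MG53-TG. MG53-TG samples 1 and 2 lay within or next to the WT range, while samples 3 and 4 were well above it, so the groups overlapped. The mean was 20.6 ± 1.46 FPKM in WT and 33.6 ± 13.6 FPKM in MG53-TG (SD, n = 4), a log2 difference of 0.59 (SE 0.26, limma adjusted p = 0.0935, exact permutation p = 0.0857). This call rested on the samples used: the limma adjusted p was 0.0288 without MG53-TG sample 1 and 0.0488 without sample 2, against 0.222 without sample 3 and 0.216 without sample 4.

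Ace (ENSMUSG00000020681, chr11:105967945-105989964, plus strand) encodes angiotensin-converting enzyme, a dipeptidyl carboxypeptidase that makes angiotensin II and digests peptides at the brush border. WT samples held 1.55, 1.83, 1.49 and 1.80 FPKM, and MG53-TG samples held 13.9, 12.8, 35.3 and 36.9 FPKM. As for Dpp4, MG53-TG samples 3 and 4 were the higher ones, but here all 4 stood above WT. The mean rose 14.8-fold, with a log2 fold change of 3.11 (SE 0.34, limma adjusted p = 0.000172).

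All 3 endopeptidase genes rose. Mme (ENSMUSG00000027820, chr3:63241537-63386030, plus strand) encodes neprilysin, which cuts on the amino side of hydrophobic residues and degrades many regulatory peptides. It was at 1.87, 1.45 and 1.01 FPKM in WT samples 1 to 3 and at 17.6, 20.7, 64.1 and 55.8 FPKM in MG53-TG. WT sample 4 had no start or end entry for Mme and was treated as missing, and its internal exon of 162 bases was listed there at 0.0438 FPKM, against at least 1.04 FPKM in the other WT samples. The log2 fold change was 3.85 (SE 0.46, limma adjusted p = 0.000488), and 4.17 with the absent sample set to 0.

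Mep1a (ENSMUSG00000023914, chr17:43474324-43502812, minus strand) and Mep1b (ENSMUSG00000024313, chr18:21061923-21100199, plus strand) encode meprin alpha and meprin beta, metalloendopeptidases of the astacin family that form dimers. Mep1a was at 3.47, 4.10, 4.11 and 3.46 FPKM in WT and at 10.1, 9.61, 12.1 and 12.1 FPKM in MG53-TG. Mep1b was at 3.37, 4.49, 4.33 and 3.93 FPKM in WT and at 20.9, 19.8, 20.6 and 25.6 FPKM in MG53-TG. The 2 meprin genes were at like levels in WT, where their samples overlapped, and apart in MG53-TG, where the lowest Mep1b sample (19.8 FPKM) was above the highest Mep1a sample (12.1 FPKM). Mep1a rose with a log2 fold change of 1.32 (SE 0.12, limma adjusted p = 5.65e-05) and Mep1b with a log2 fold change of 2.17 (SE 0.12, limma adjusted p = 5.29e-06).

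FPKM is per length of transcript, so the levels of the genes can be set in order as read here. Enpep was read from end events and the others from start events. A gene with few of its starts or ends listed is read low, which limits this order. In WT the order of mean FPKM was Anpep, Dpp4, Mep1b, Mep1a, Enpep, Xpnpep2, Ace and Mme. Samples of neighbours overlapped for Mep1b and Mep1a, for Enpep and Xpnpep2, and for Ace and Mme. In MG53-TG the order was Anpep, Enpep, Mme, Dpp4, Ace, Mep1b, Mep1a and Xpnpep2, and the samples overlapped between each neighbour from Enpep to Mep1b. Mme thus moved from the lowest mean to the third highest, and Enpep from the fifth to the second highest.

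The summed FPKM of the 8 genes was 111 ± 12.1 in WT and 502 ± 77.9 in MG53-TG (SD, n = 4), a ratio of 4.52. Without Anpep, the other 7 went from 35.4 ± 1.89 to 200 ± 70.5 FPKM. The share of each gene in the sum, which does not depend on scaling between samples, was tested on both sides by exact permutation of the sample labels. The 70 relabellings allow no p below 0.0286, and p-values were not adjusted over the genes. Shares within a sample add up to 100%, so they are not independent of each other.

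Dpp4 lost the largest part of the pool with the values used here, from 18.7% ± 1.39 to 6.51% ± 1.76 (SD, n = 4, exact p = 0.0286). Mep1a went from 3.42% to 2.20% and Xpnpep2 from 1.87% to 1.10%, both with exact p = 0.0286, although their levels rose. Enpep gained the most, from 1.99% ± 0.365 to 12.6% ± 1.57 (SD, n = 4, exact p = 0.0286). Ace went from 1.52% to 4.73% and Mme, with WT sample 4 set to 0, from 0.978% to 7.49%, both with exact p = 0.0286. The shares depend on which events stand for a gene. With start events only, where Enpep has only minor entries, its difference was -0.0366 percentage points (exact p = 0.314). With end events only, where Mep1a and Mep1b have none and Dpp4 and Xpnpep2 only minor entries, Anpep fell by 21.4 points and Dpp4 by 0.299 points (exact p = 0.0286 for both), while Xpnpep2 (exact p = 0.429) and Ace (exact p = 0.114) did not pass. The calls for Ace and Mme were lost when any of the 4 WT samples was left out, with exact p = 0.0571 for Ace and 0.0857 for Mme. The share of Anpep was 67.9% ± 1.82 in WT and 61.0% ± 8.42 in MG53-TG (SD, n = 4, exact p = 0.229), and that of Mep1b 3.63% and 4.38% (exact p = 0.0857). Anpep was thus the main transcript of the pool in every sample, from 53.6% in MG53-TG sample 3 to 70.2% in MG53-TG sample 2.

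**Figure D2:**
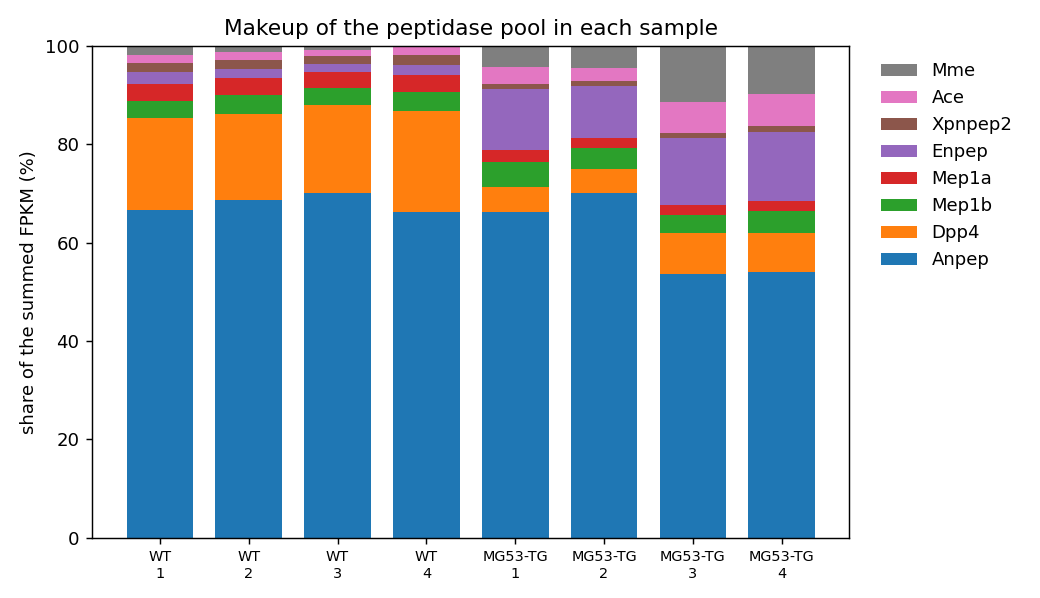
Share (vertical axis, percent) of each peptidase in the summed FPKM of the 8 genes, stacked for each of the 4 WT and 4 MG53-TG samples. Dpp4 shrinks from 18.7% to 6.51% on average while Enpep grows from 1.99% to 12.6%, and Mme is widest in MG53-TG samples 3 and 4.

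The spread within MG53-TG differed from gene to gene. The highest MG53-TG sample was 1.22 times the lowest for Anpep, 1.26 times for Mep1a and 1.29 times for Mep1b, but 2.23 times for Dpp4, 2.88 times for Ace and 3.64 times for Mme. In 6 of the 8 genes, all but Anpep and Mep1b, samples 3 and 4 were both above samples 1 and 2. Cell type markers moved in the same samples: the summed enterocyte markers were 3026, 3091, 4814 and 5249 FPKM in MG53-TG samples 1 to 4, the summed stem cell markers 253, 271, 78.6 and 47.2 FPKM, and the summed proliferation genes 295, 297, 159 and 116 FPKM. The summed goblet cell markers were 183, 256, 424 and 505 FPKM there, against 684 to 776 FPKM in WT. Whether the makeup of the cultures set the differences between these samples was not tested.

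**Figure D3:**
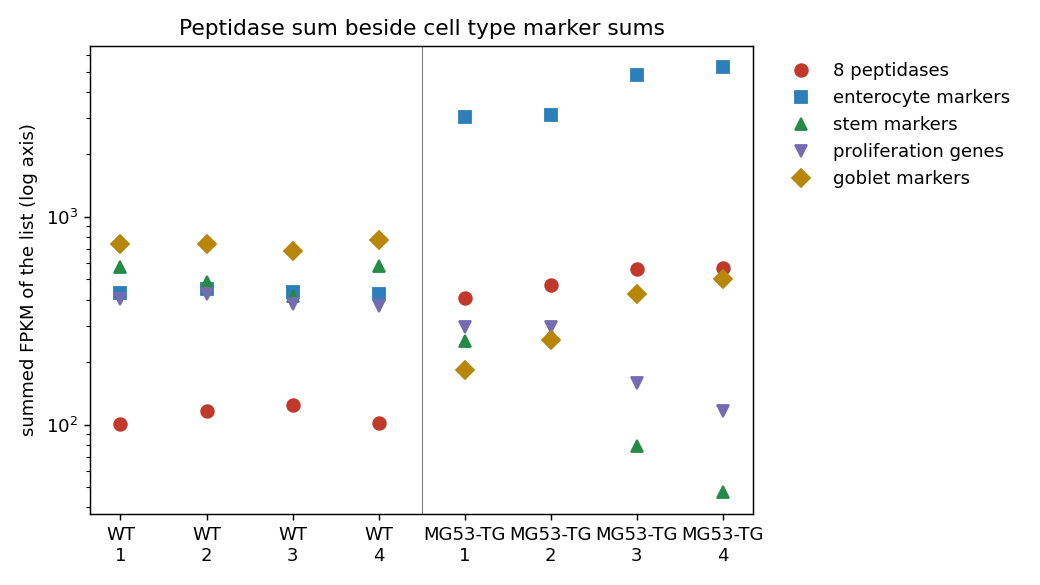
Summed FPKM (vertical axis, log scale) of the 8 peptidases and of lists of enterocyte, stem cell, goblet cell and proliferation genes, with 1 point per list and sample. The peptidase sum lies between 407 and 569 FPKM in MG53-TG against 100 to 125 FPKM in WT, and in MG53-TG samples 3 and 4 the stem cell sum is lowest while the enterocyte sum is highest.

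Markers of other cell types are given because several of these peptidases are also made outside enterocytes. The counts that follow stand beside 15.5% of all genes called higher and 29.2% called lower. Of 5 stem cell markers 3 fell and none rose, and of 5 proliferation genes 4 fell. Of 6 goblet cell markers with a value 4 fell, and all 4 Paneth cell markers with a value fell, while 2 of 4 enteroendocrine markers rose. The goblet cell marker Zg16 had a higher mean in MG53-TG and Clca1 a lower one, and neither passed. The Paneth cell marker Pla2g2a passed the filter only through WT, so its call decides nothing. No endothelial marker of 5 had a value. Of 8 immune markers only 2 had a value, with a sum of at most 0.0913 FPKM in WT and 0.000508 FPKM in MG53-TG, and Ptprc, which marks all white blood cells, was not listed in WT. The mesenchymal markers summed to between 1.80 and 3.24 FPKM in WT and between 1.31 and 5.58 FPKM in MG53-TG. Within them, Col1a2 and Col3a1 were not listed in WT or in MG53-TG sample 1 and averaged 1.24 and 1.26 FPKM over the 3 other MG53-TG samples, and the fibroblast marker Pdgfra had no value. Both collagen genes were called higher, 2 of the 3 mesenchymal markers tested, but these calls decide nothing. Both genes passed the filter only through MG53-TG, and their absence counted as 0 in WT and as missing in MG53-TG sample 1. The part of such cells in the peptidase values was not tested. The 8 markers of proximal and distal small intestine with a value moved both ways, 4 higher and 3 lower. Among them, Slc51a passed the filter only through MG53-TG, and Fgf15 and Slc10a2 only through WT, so their calls decide nothing.

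Transcripts of some members began or ended at more than 1 place. The genomic organisation of Anpep is known for an upstream promoter used in myeloid and other cells and a separate promoter next to the coding part that is used in the intestine. The start exon at chr7:79841638-79842352 held 99.0% to 100% of the start FPKM in all 8 samples. The upstream start exon, at chr7:79848145-79848210, was listed at 0.590, 0.588, 0.169 and 0.643 FPKM in WT and in MG53-TG only in sample 3, at 0.106 FPKM. The rise of Anpep thus lay in transcripts from the start exon next to the coding part.

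Ace had start exons at chr11:105967945-105968245 and at chr11:105971323-105971483. The upstream exon held 71.4%, 54.5%, 88.5% and 57.0% of the start FPKM in WT and 45.7%, 43.6%, 87.5% and 44.9% in MG53-TG. These shares overlapped, and their means of 67.8% and 55.4% did not pass a two-sided exact permutation test (p = 0.371). The difference of -12.4 percentage points ranged from -23.1 without MG53-TG sample 3 (exact p = 0.0857) to -5.52 without WT sample 3 (exact p = 0.743). Both starts were higher in every MG53-TG sample than in any WT sample, the upstream one at 5.59 to 30.9 against 1.00 to 1.32 FPKM and the downstream one at 4.40 to 20.3 against 0.172 to 0.835 FPKM. Testis makes a shorter form of the enzyme from an internal promoter, and no start event lay within 50 bases of the internal RefSeq start at chr11 position 105975189.

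Mme started at chr3 position 63295266, with 3 alternative first exons, and at position 63296095, the start of the downstream promoter printed. In WT samples 1 to 3 the start at 63296095 held 95.9%, 95.5% and 97.5% of the start FPKM. In MG53-TG it held 76.7%, 3.08%, 24.3% and 40.8%. The start exons from 63295266 to 63295949 and from 63295266 to 63295878 had no entry in WT, and together they held most of the start FPKM in MG53-TG samples 2 to 4. The shares varied widely between the MG53-TG samples and Mme was low in WT, so no test was made.

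**Figure D4:**
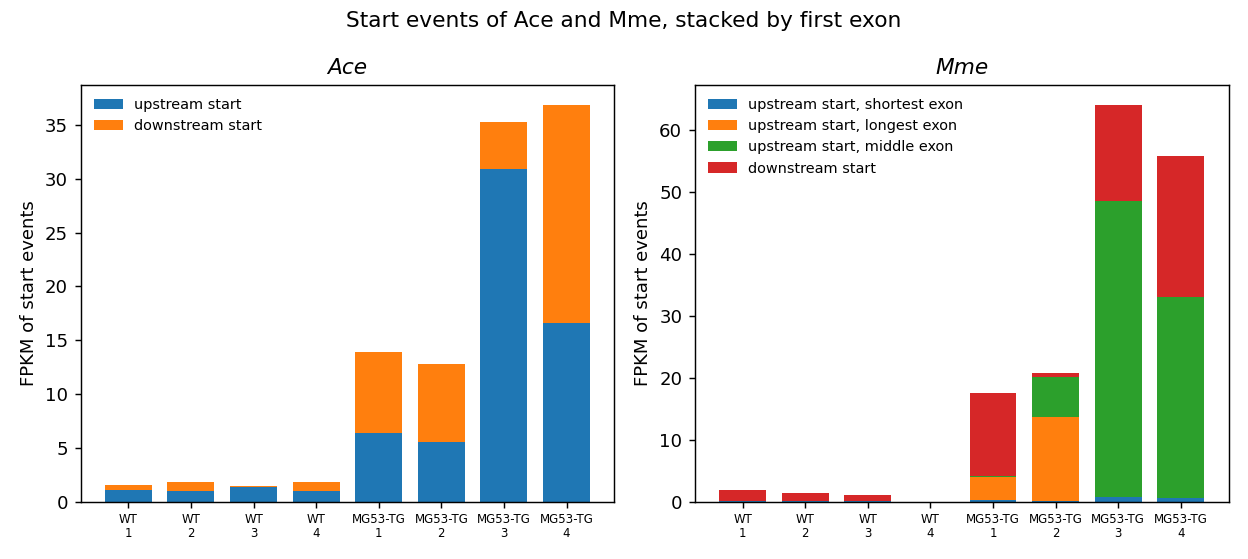
FPKM (vertical axis) of the start events of Ace and Mme in each sample, stacked by first exon and ordered from the 5′ side. Both Ace starts are higher in every MG53-TG sample, and in MG53-TG the upstream Mme start, minor in WT, stands beside the downstream one with a different mix of first exons in each sample.

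Enpep ended at chr3:129269175-129270422, the annotated end of the full transcript, or at a proximal site at chr3:129298594-129298981. The distal end held 92.0%, 97.0%, 85.0% and 81.9% of the end FPKM in WT and 97.7%, 99.6%, 99.6% and 99.4% in MG53-TG. The groups did not overlap, with means of 88.9% ± 6.82 and 99.1% ± 0.927 (SD, n = 4, exact permutation p = 0.0286). The exact p was 0.0571 when any MG53-TG sample was left out. The proximal end itself was at 0.0672 to 0.380 FPKM in WT and at 0.202 to 1.17 FPKM in MG53-TG, so the shares in WT rest on low values.

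Inside Mep1b an exon of 19 bases at chr18:21074922-21074940 was skipped in part of the transcripts. Its inclusion was 97.2%, 68.2%, 76.4% and 78.3% in WT and 89.7%, 87.9%, 83.2% and 80.3% in MG53-TG, and the groups overlapped. The 2 end events listed for Dpp4 were below 1 FPKM in all samples, and the share of the end at chr2:62364717-62365063 was 37.1% in WT and 36.1% in MG53-TG (exact permutation p = 0.971).

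Other peptidases of the apical membrane were read beside the 8. Of 10 listed, 5 were tested, 1 rose, 1 fell and 3 did not pass, where 15.5% of all genes tested were called higher and 29.2% lower. Their median log2 fold change was -0.12, or 0.05 after median-of-ratios scaling and 0.06 after quantile normalization. Ggt1, which splits the gamma-glutamyl bond of glutathione, went from 3.82 ± 0.654 to 46.7 ± 36.3 FPKM, and MG53-TG samples 3 and 4 were again the higher ones, at 85.2 and 70.3 FPKM against 15.6 and 15.9 FPKM. Lnpep, the insulin-regulated aminopeptidase of endosomes and the plasma membrane, fell from 17.8 ± 0.719 to 10.3 ± 0.634 FPKM. Folh1, Dpep1, Tmprss15 and Fap had no value, and Mmel1 was under the filter.

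Cytosolic and lysosomal peptidases finish peptides inside the cell. Of 20 tested, 4 rose, 7 fell and 9 did not pass, where 15.5% of all genes tested were called higher and 29.2% lower, with a median log2 fold change of -0.28, or -0.10 after median-of-ratios scaling and -0.15 after quantile normalization, where 4 fell. Lap3, a leucine aminopeptidase, rose from 38.5 ± 2.36 to 61.5 ± 7.39 FPKM. Cndp2, a dipeptidase of the cytosol, rose from 24.1 ± 4.62 to 53.7 ± 7.31 FPKM. Npepps, the puromycin-sensitive aminopeptidase, fell from 51.0 ± 6.62 to 30.0 ± 2.19 FPKM. These 3 kept their calls under both scalings.

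Carriers of peptides and amino acids, most of them apical and some on the blood side of the cell, were higher or did not pass. Of 10 tested, 6 rose and 0 fell at the threshold, beside 15.5% higher and 29.2% lower among all genes tested, with a median log2 fold change of 1.06. Slc6a19, the apical carrier of neutral amino acids, went from 1.00 ± 0.189 to 49.1 ± 5.55 FPKM (log2 fold change 4.64, SE 0.12, limma adjusted p = 8.33e-08). Slc3a1, the heavy chain of the carrier of cystine and basic amino acids, went from 19.3 ± 2.29 to 39.2 ± 6.34 FPKM, and Slc7a7, which exports basic amino acids to the blood side, from 15.3 ± 2.41 to 34.4 ± 1.84 FPKM. The peptide carrier Slc15a1 was low, at 0.355 ± 0.509 FPKM in WT and 3.35 ± 1.56 FPKM in MG53-TG, with a log2 fold change of 1.67 (SE 0.31, limma adjusted p = 0.00293). Slc15a1 is among the 6 counted as higher, but it passed the filter only through MG53-TG, so its call decides nothing.

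**Figure D5:**
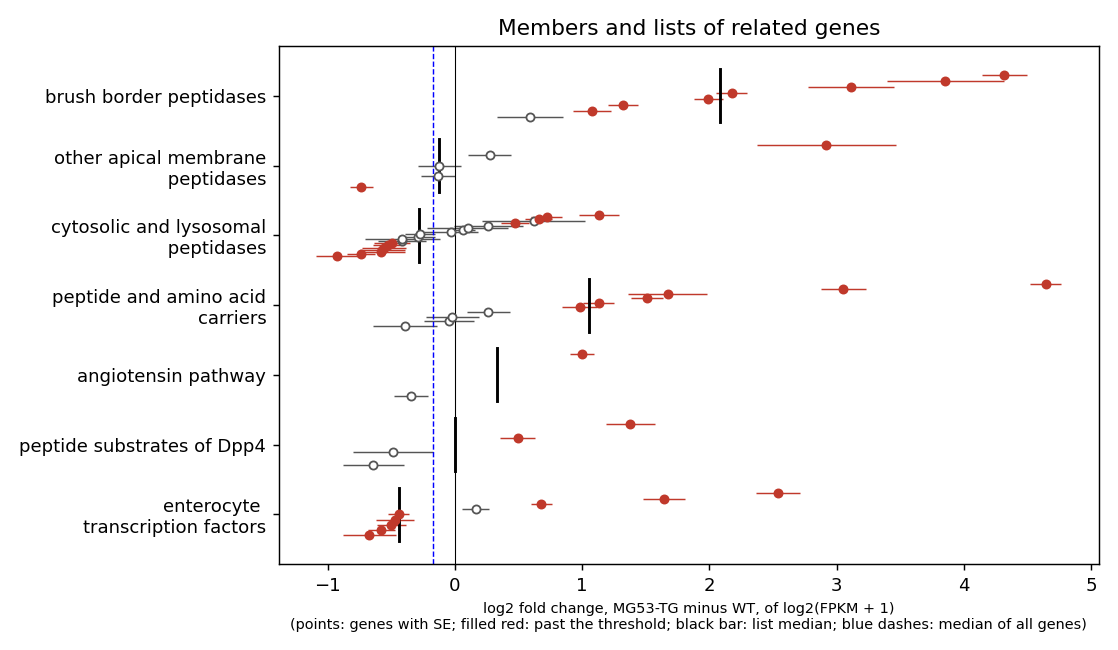
Log2 fold change (horizontal axis, MG53-TG minus WT of log2(FPKM + 1)) of the 8 peptidases and of the tested genes of each related list, with SE bars. Filled red points passed the threshold, the black bar is the list's median, and the dashed blue line is the median of all genes at -0.17. The median of the peptidases is 2.08, and the medians of the lists shown range from -0.44 to 1.06.

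Substrates and pathway partners were measured as far as they were listed. Their calls stand beside 15.5% of all genes tested called higher and 29.2% called lower. In the angiotensin pathway 2 of 8 genes were tested: Ctsa, a lysosomal carboxypeptidase, rose from 28.8 ± 1.87 to 58.7 ± 4.87 FPKM, and Prcp was at 11.8 ± 0.952 and 9.12 ± 1.61 FPKM without passing. Agt, the angiotensin precursor, was under the filter, and Ren1, Agtr1a, Agtr1b, Agtr2 and Mas1, which encode renin and the receptors, had no value. Of 4 Dpp4 substrate genes tested, Gip, the incretin of K cells, rose from 31.0 ± 2.29 to 44.6 ± 8.32 FPKM and Tac1, the substance P precursor, from 7.96 ± 1.99 to 22.1 ± 3.94 FPKM. Gcg, the precursor of the incretin GLP-1, was at 49.3 ± 16.6 and 35.7 ± 13.7 FPKM and did not pass, nor did Pyy. Vip had no value.

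The factors whose letters were searched in the promoters were also read as transcripts. Of 9 enterocyte transcription factors tested, 3 rose, 5 fell and 1 did not pass, beside 15.5% higher and 29.2% lower among all genes. These counts were 4 higher and 2 lower after median-of-ratios scaling and 3 higher and 3 lower after quantile normalization. Each count of higher genes includes Maf, at a mean of 0.0404 FPKM in WT and 2.30 FPKM in MG53-TG. Maf passed the filter only through MG53-TG, so its call decides nothing. Hnf4g rose from 15.5 ± 0.928 to 97.6 ± 28.6 FPKM (log2 fold change 2.54, SE 0.18, limma adjusted p = 1.53e-05). Its relative Hnf4a fell from 148 ± 7.88 to 109 ± 8.15 FPKM and Cdx2, a homeobox factor of intestinal identity, from 81.9 ± 2.27 to 54.9 ± 7.68 FPKM, and these 3 kept their calls under both scalings.

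To find transcripts with a like pattern, the mean standardised profile of the 8 peptidases was compared with the 6511 protein-coding genes whose mean reached 5 FPKM, by Pearson r over the 8 samples, as a description without a p. The 5 most like it, all with r above 0.99, were Aldh1a1, a retinal dehydrogenase (r = 0.999), Iyd, an iodotyrosine deiodinase, Cyp2c29, a cytochrome P450, Ehhadh, an enzyme of peroxisomal fatty acid oxidation, and Leap2, which encodes the ghrelin receptor antagonist peptide. Aldh1a1 was at 6.49 to 9.00 FPKM in WT and at 88.5, 97.0, 258 and 278 FPKM in MG53-TG. Leap2 was at 8.86 to 10.2 FPKM in WT and at 56.5, 61.6, 127 and 140 FPKM in MG53-TG. All points share the same 8 libraries and fall into 2 groups, so such an r mostly describes the difference between the groups.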

How the data were processed

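The authors trimmed reads with Cutadapt 1.9.1, mapped them with HISAT2 2.0.1 (mm10, per the submitters' processing notes, which also name DESeq2 without a role) and deposited, for each sample, FPKM values of transcript events. The study's methods credit the FPKM step to a tool spelled Heseq, version 0.6.1, and the processing notes name HTSeq 0.6.1. An event is a transcript start, end, skipped exon, retained intron or alternative exon end. The tool that divided the transcripts into events is not given in the sources used here. The smallest FPKM was 1e-06, so whole reads could not be recovered and the depth is unknown. Start events summed to between 269094 and 284330 FPKM per sample.

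Rows were read by Ensembl identifier and kept if strand, chromosome and at least 1 exon boundary matched GENCODE M21 on GRCm38, as for 89.2% of 123166 events. A gene's value was the sum of its start events, or of its end events where that mean was higher (3255 genes). Where a sample lacked a gene, the value was set as missing if the rest of its group had a median from 0.5 FPKM up, and to 0 otherwise. An event model that lists few starts or ends of a gene understates its level.

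Groups came from the genotype labels. The test was limma 3.58.1 (lmFit, eBayes with trend, R 4.3.3) on log2(FPKM + 1), for the 10271 genes whose mean reached 0.5 FPKM. P-values were adjusted by Benjamini-Hochberg and the threshold was 0.05. The pseudocount makes fold changes of low genes appear smaller. Shares were compared by exact permutation over 70 relabellings. Named genes were the 8 members, from each list those past the threshold or, if over 5, the 3 with the highest mean, genes without a value, and the 5 most similar genes. Slc15a1, Gcg, Prcp, Zg16, Clca1 and the mesenchymal genes were added after their values were seen. The members and lists were chosen with earlier results of these data known. In simulated data with 200 of 10271 genes changed, 69.8% were recovered at a log2 change of 1 and 97.1% at 2, with 13 unchanged genes called. In the data 4596 genes were called, far more than were changed in the simulation, so these rates need not hold for them. Alternatives were a pseudocount of 0.1, no filter or a mean of 2 FPKM, other scalings, other event rows, absent genes as 0, a replicate block, sample weights and leaving out each sample. Python 3.11.15, numpy 2.4.6 and pandas 2.3.3 were used. RefSeq protein sequences were not used here, and some genes of the lists are not reported here and were left out of the lists' counts.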

Additional observations from a re-analysis of the deposited data

Results flagged for a closer look

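In groups of 4 samples, the highest or lowest value was compared with Dixon's 95% critical value. Of 45 groups of values tested, 4 stood out, where chance gives 2.25, and they are 2 pairs that mirror each other. MG53-TG sample 3 had 87.5% of its Ace start FPKM at the upstream exon and 12.5% at the downstream exon, against 43.6% to 45.7% upstream in the other MG53-TG samples. MG53-TG sample 1 had 2.33% of its Enpep end FPKM at the proximal site and 97.7% at the distal one, against 0.409% to 0.642% proximal in the others.

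Events outside the values of the peptidases were also listed under the Anpep identifier. There were 5 events on the plus strand, opposite to Anpep, at chr7:79842403-79857162, where the annotation has 0 plus-strand genes. Their start was listed in no WT sample and not in MG53-TG sample 1, while MG53-TG samples 2 to 4 held 1.21, 1.81 and 3.69 FPKM. Whether the libraries kept the strand of the RNA is not given in the sources used here, so these events cannot be told apart from reads of Anpep itself, and their source was not tested.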

How the results depend on the processing

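The 7 peptidases past the threshold stayed at 7 with another pseudocount, filter, scaling, absent genes as 0, sample weights or the highest event, at 6 with start events and at 4 with end events, since Enpep has no fitted start value and Dpp4, Mep1a, Mep1b and Xpnpep2 no fitted end value. Leaving out each sample gave 7 to 8, and 3645 to 4857 genes against 4596. Dpp4 ranged from 0.41 to 0.78 (log2), and was past the threshold at 0.78 and 0.74 without MG53-TG samples 1 and 2, while the other 7 peptidases kept their calls in all 8 of these fits. Replicate numbers did not pair the samples (correlations 0.0917, -0.00302, 0.0939 and -0.0505). With the replicate block 4196 genes passed, 4012 of them shared, and 7 peptidases, with no change of call among the 8 and Mme at 3.62. Without the check of coordinates, an alternative added after seeing the data, 4812 genes passed.

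For shares, a difference is MG53-TG minus WT in percentage points. With start events only, Anpep was at 0.43 (exact p = 0.914), Enpep at -0.0366 (exact p = 0.314) and Mep1b at 1.30 (exact p = 0.0286). With end events only, Anpep was at -21.4 (exact p = 0.0286), Ace at 1.95 (exact p = 0.114) and Xpnpep2 at -0.0871 (exact p = 0.429). Dpp4 was then at -0.299 (exact p = 0.0286). The end sums lack Mep1a and Mep1b and hold only minor ends of Dpp4 and Xpnpep2, and the start sums hold only minor starts of Enpep. Leaving out each sample gave -9.95 to -4.44 for Anpep, past the threshold without MG53-TG sample 2, 0.496 to 0.984 for Mep1b, past it without MG53-TG sample 3, 2.62 to 3.87 for Ace, and 5.21 to 7.56 for Mme. It gave -12.8 to -7.76 for the proximal and 7.76 to 12.8 for the distal Enpep end. For the Dpp4 ends it gave -6.28 to 9.07 at 62364717 and -9.07 to 6.28 at 62374255, changing sign without WT sample 4 or MG53-TG sample 2 or 4, and none passed.

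Counting error could not be computed, since the depth is unknown. Values under 1 FPKM, such as the proximal Enpep end in WT, carry the least weight.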
